A study of Salmo salar with 58 samples.

Results

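Of the 26239 genes measured in Atlantic salmon, 200 stood furthest above the rest of the intestine libraries in 2 of them, replicates 5 and 6 of the intestine control. They were chosen from the same values that are described here. Each normalized read count was put on a scale of log2(value + 2), and a gene's score was the lower of controls 5 and 6 minus the highest of the other 27 intestine libraries. The 200 genes with the highest score are called the gained genes. The smooth muscle actin gene acta2, which the rule sets aside, ranked 1852 with a score of 0.76 and would not have entered. Because the rule used the contrast of controls 5 and 6 with the other 27 libraries, every value of that contrast is a description and carries no test.

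The salmon gut changes along its length. The stomach of salmon has one kind of gland cell that makes both acid and pepsinogen, under a mucous surface epithelium and inside a thick muscle coat, while the intestine behind it is lined by absorbing enterocytes with a brush border. Region is set by transcription factors, among them Cdx and Hnf4 proteins in the intestine and Foxa proteins in the foregut and its outgrowths, the liver included, and by Hox genes, whose higher-numbered groups are used further back along the body.

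The libraries were made from polyadenylated RNA of liver and distal intestine sampled 12 h into an acute in vivo exposure. The intestine groups were low enniatin B (6 libraries), high enniatin B (6), low beauvericin (5), high beauvericin (6) and control (6), and the liver had the same 5 groups with the same numbers. Enniatin B and beauvericin are cyclic peptides in which hydroxy acids alternate with amino acids, made by Fusarium moulds that grow on cereals. Doses are named only as low and high, and the labels give neither strain, age, sex nor whether each number is a separate fish, so p-values measure the spread between these samples, which may be technical. Samples are bulk tissue, so fewer cells of a type and less RNA per cell cannot be told apart.

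Controls 5 and 6 held 30.1 and 23.3 M assigned reads, against 30.3 to 40.6 M in the other 27 intestine libraries and 30.7 to 61.7 M in liver. The median gene was shifted by -0.02 and -0.05 (log2) in controls 5 and 6 relative to the 27. Of all 26239 genes, 5328 were higher in both than in each of the 27 (20.3%), and 5262 were lower (20.1%). The 2 libraries therefore stood apart over a large part of the genes, of which the gained genes are the upper end.

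All 200 gained genes were higher in controls 5 and 6 than in every other intestine library, as the rule requires. Scores ran from 2.85 to 9.92 with a median of 3.58. The gained genes took 5.94 and 5.84% of all assigned reads in these 2 libraries and 0.163 to 0.257% in the other 27, with a median of 0.212%. Their median level was 10.72 and 10.67 on the log2 scale in controls 5 and 6, against 5.63 to 6.08 in the 27. Within the 27, controls 1 to 4 gave them 0.163 to 0.212% of reads.

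**Figure D1:**
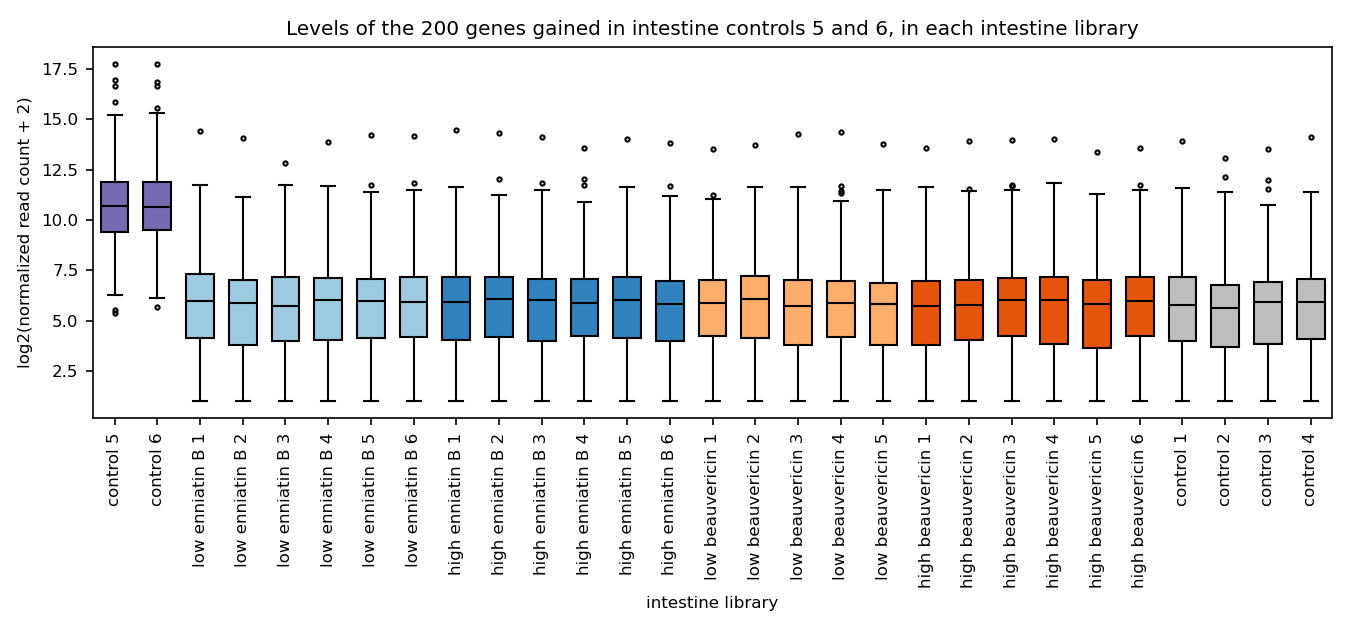
Levels of the 200 gained genes in each of the 29 intestine libraries, as log2(normalized read count + 2) on the vertical axis, with controls 5 and 6 at the left. Boxes span the quartiles with the median as a line, whiskers reach 1.5 box lengths and points lie beyond; medians are 10.72 and 10.67 in controls 5 and 6 and 5.63 to 6.08 in the other 27.

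Controls 5 and 6 gave similar levels of most gained genes. For 176 of the 200 genes the values lay within 1.5 times of each other, and 117 were higher in control 6. The score uses the lower of the 2 values, so the rule favours such likeness. It was not counted over all genes, so it is not read as a trait of the 2 libraries. Only 6 differed by more than 2 times. The carboxylesterase gene ces3, LOC106610517 and LOC106589342 were higher in control 6, and LOC100136539, ccdc135 and LOC106611720 were higher in control 5. LOC106611720 had the widest gap, with 30151 normalized reads in control 5 and 4416 in control 6, against 173 to 598 in the 27. It was named after its values were seen, as were the other 5.

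In the other 27 libraries the gained genes covered a wide range. The median over those libraries was 0 for 7 genes, under 10 for 38, between 10 and 100 for 96, and 100 or more for 66. Above 0 in all 27 were 170 genes. The tests below keep a gene with 10 normalized reads or more in at least 5 libraries, and 170 of the 200 passed. In controls 5 and 6, 129 genes exceeded 1000 and 20 exceeded 10000 in both. At the edge of the list, efnb2a (score 2.87), LOC106565734 (2.85) and gal3st1a (2.85) lay just inside, and LOC106580620, LOC106587426 and LOC106574316 (2.85 each) just outside.

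A symbol other than a LOC number was recorded for 59 genes, 136 had a LOC number only and 5 had no record in the reference table. By the record 189 are protein-coding, 4 are long noncoding RNAs and 2 are pseudogenes. The reference table carries no product names, so genes with a LOC number are given by number alone. They include the 2 highest scores. LOC106604731 had 9584 and 8504 normalized reads in controls 5 and 6, against 6.78 at most in the 27. LOC106576606 had 58755 and 48383, against 0.540 to 117 and a median of 22.1. Several of the others stood high in read number, such as LOC106608552 with 127082 and 117402, against 477 to 1752 in the 27. LOC106564958 had 221008 and 219563 in controls 5 and 6, but was not rare elsewhere, at 7398 to 22834. These 4 LOC genes were named after their values were seen.

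**Figure D2:**
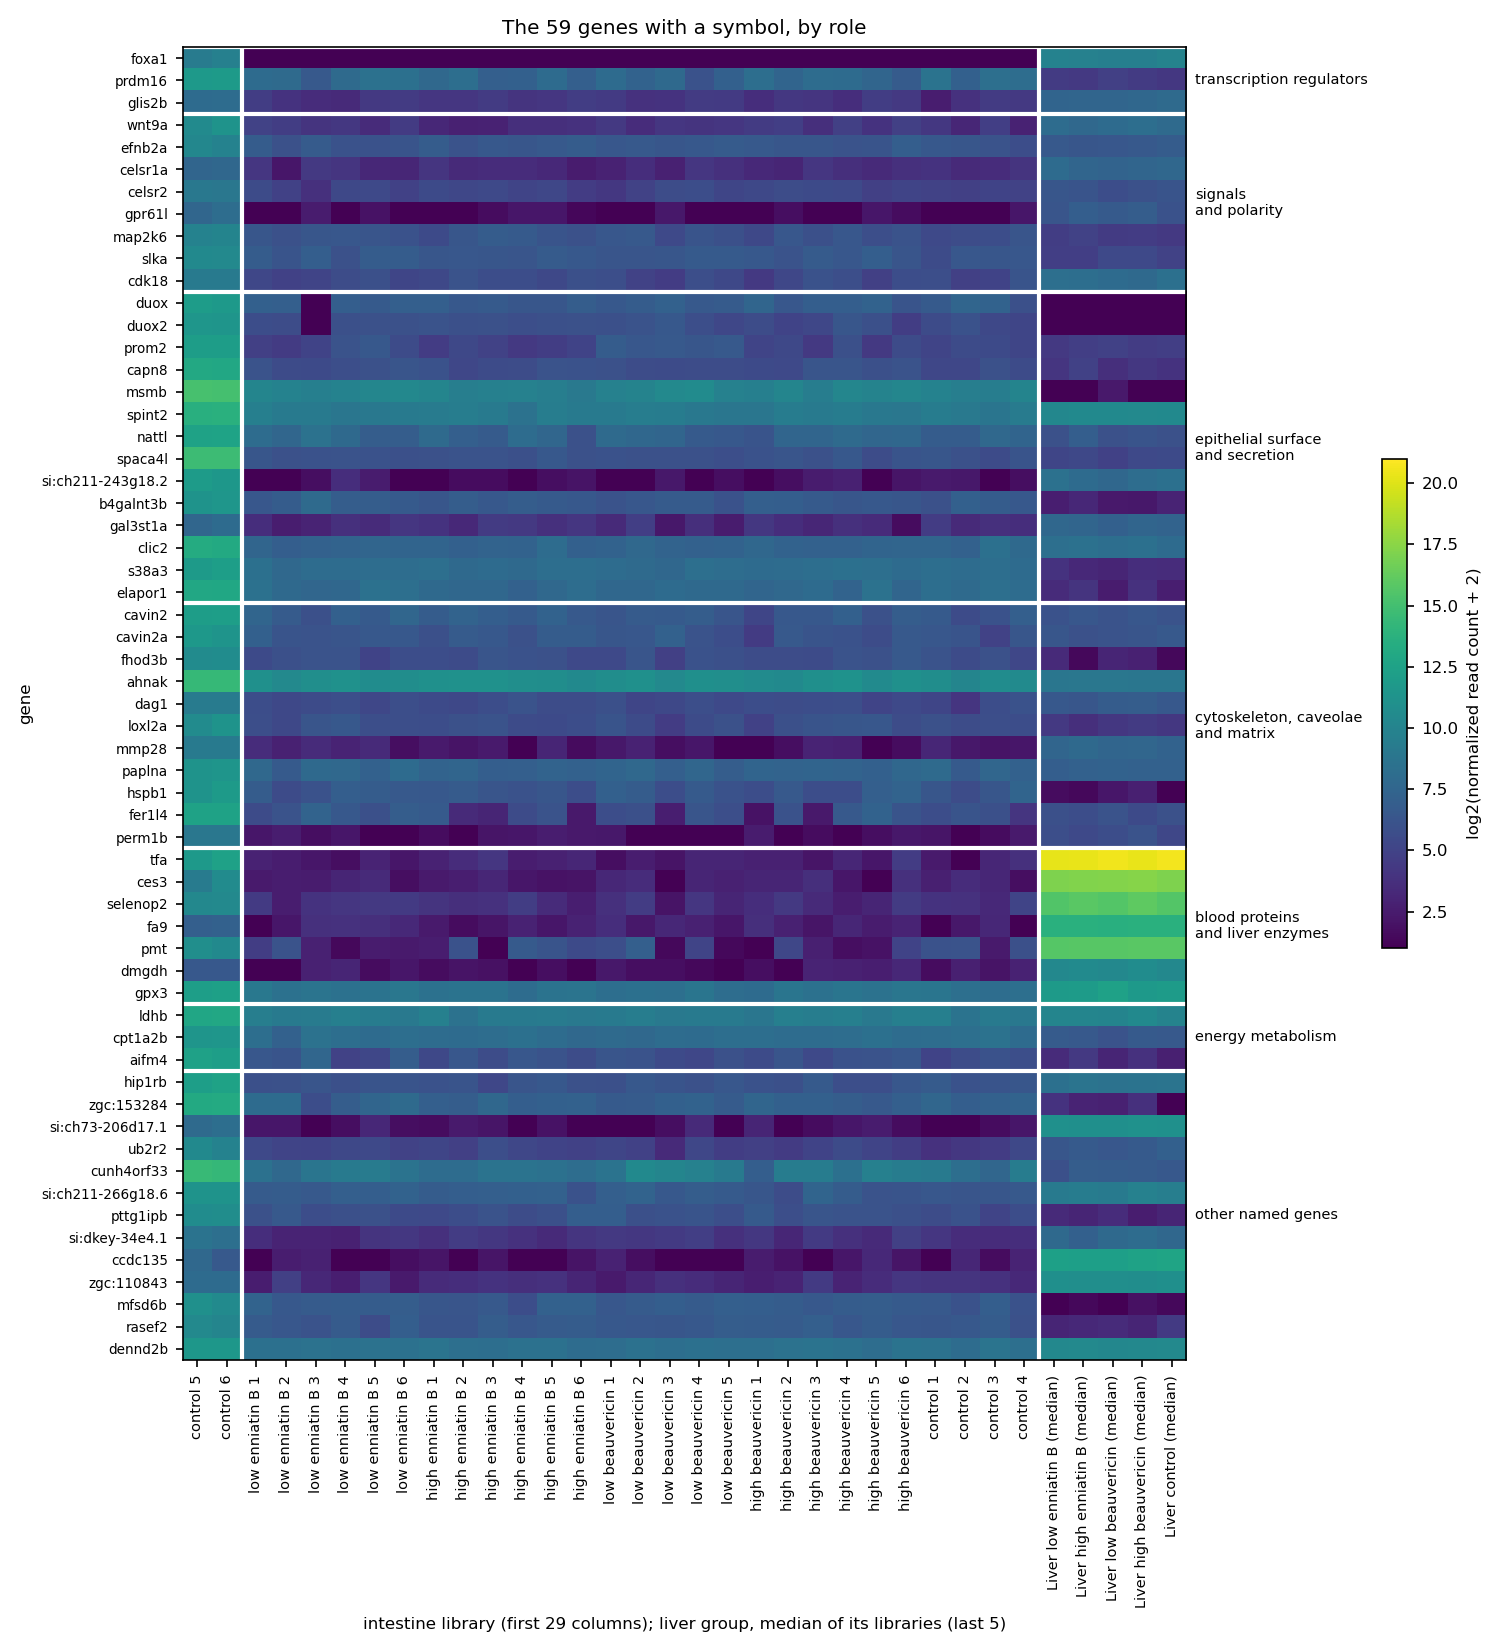
The 59 gained genes with a symbol (rows, grouped by role) in controls 5 and 6, the other 27 intestine libraries and, in the last 5 columns, the median of each liver group. Colour is log2(normalized read count + 2); controls 5 and 6 are brighter than the 27 in every row, and the liver columns are bright for tfa, ces3, selenop2, pmt and fa9 and at or near the floor for duox, duox2 and msmb.

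Among the named genes, 3 regulate transcription. foxa1, a pioneer factor of foregut and liver development, had 623 and 819 normalized reads in controls 5 and 6 and was listed at 0 in each of the 27 others. It was the third highest score of all 26239 genes, at 8.29. In liver its median was 869. No other gene of the Foxa family was measured under its symbol. prdm16, a zinc finger regulator known from brown fat and stem cells in mammals, had 3574 and 3826, against 63 to 397. glis2b, a Krüppel-like zinc finger factor, had 252 and 264, against 4.13 to 22.7.

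Signals, receptors, cadherins of cell polarity and kinases made up 8 of the named genes. The secreted Wnt ligand wnt9a had 1543 and 2503 normalized reads, against 5.06 to 29.5 in the 27. The membrane-bound ligand efnb2a, an ephrin that acts at boundaries between cell groups, had 1208 and 924, against 51.5 to 125. The cadherins celsr1a and celsr2 serve planar polarity, the alignment of cells within a sheet. celsr1a had 184 and 200, against 2.64 to 17.5, and celsr2 had 519 and 481, against 11.7 to 50.3. The orphan receptor gene gpr61l had 189 and 288, and did not exceed 3.89 in the 27. The kinase genes map2k6, slka and cdk18 stood 14.2, 17 and 15.3 times above the median of the 27.

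Roles were given only to the 59 gained genes with a symbol and were not counted over all genes. The size of a group is therefore not read as a trait. The group of the epithelial surface and what it secretes held 14 genes. Both dual oxidase genes, whose proteins release hydrogen peroxide at the outer face of epithelia, were among them. duox had 4322 and 3651 normalized reads in controls 5 and 6, against 0 to 186 with a median of 111 in the 27. duox2 had 2977 and 2692, against 0 to 91.3 with a median of 56.2. They lie next to each other on chromosome 10 of the reference assembly, and both had a median of 0 in liver. In 1 of the 27 libraries, low enniatin B replicate 3, both were at 0, while the next lowest library had 57.5 for duox and 22.8 for duox2.

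capn8, a calpain protease of the stomach surface mucous cells in mammals, had 8619 and 8130 normalized reads, against 36.6 to 77.0 in the 27. Its level was thus 169 times the median of the 27. The other 4 calpain genes measured under a symbol, capn15, capn10, capn3b and the small subunit capns1a, differed from that median by -0.18 to 0.42 (log2). prom2, a protein of membrane protrusions in epithelia, had 4481 and 4477, against 17.6 to 108. Its relative prom1a was higher by 1.31 (log2).

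Several secreted or surface proteins followed the same pattern. msmb, the gene of the small secreted protein beta-microseminoprotein, had 38042 and 35279 normalized reads, against 553 to 1598. Its liver median was 0. spaca4l, named after a membrane protein of the Ly6 family, had 27179 and 26739, against 44.6 to 88.7. spint2, a Kunitz-type inhibitor of epithelial serine proteases, had 12436 and 13134, against 368 to 782, while the related spint1a differed by -0.27 (log2). The natterin-like gene nattl had 5935 and 6275, against 61 to 361. elapor1, a membrane protein of endosomes and lysosomes, had 8133 and 7651, against 143 to 370.

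Genes of sugar chains, ions and keratin complete the surface group. b4galnt3b, which adds N-acetylgalactosamine to glycans, had 2499 and 2970 normalized reads, against 62 to 240. gal3st1a, a sulfotransferase of glycolipids, was the last gene of the list, at 190 and 257 against 1.20 to 24.6. s38a3, recorded under the name of an amino acid transporter, had 3837 and 4698, against 205 to 335. si:ch211-243g18.2, whose synonym k1c18 is that of a type I keratin, had 4024 and 3120, and did not exceed 10.2 in the 27. Its usual partner type, the type II keratin k2c8, was higher by 2.23 (log2) and is not one of the gained genes, and krt18b differed by 0.21.

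The chloride intracellular channel family split in controls 5 and 6. clic2 had 10056 and 9019 normalized reads, against 123 to 337 in the 27. clic5a, known from microvilli in mammals, had 125 and 1.80, against 249 to 12994 with a median of 9024. clic4 had 2073 and 2529, within its range of 1372 to 2679. The relatives named in this and other families were looked up after the values were seen.

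Cytoskeleton, caveolae and matrix were represented by 11 genes. The caveola coat genes cavin2 and cavin2a had 4478 and 4704, and 3231 and 2549 normalized reads, against 34.8 to 190 and 20.6 to 143 in the 27. cavin1, which builds the same coat, was higher by 1.54 (log2). The formin fhod3b, known from muscle actin assembly, had 1634 and 1667, against 25 to 94.2. The small heat shock gene hspb1 had 2441 and 3893, against 44.8 to 173. Its relative hspb6, just outside the list at rank 207, had 2799 and 1934, against 27.5 to 274. ahnak, a giant scaffold protein under the cell membrane, had 21542 and 21523, against 1078 to 2294, and the laminin receptor gene dag1 had 653 and 628, against 14.8 to 67.6.

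Among matrix enzymes, loxl2a, which crosslinks collagen and elastin, had 1613 and 2492 normalized reads, against 22.1 to 87.5. The metalloprotease mmp28 had 585 and 612, and did not exceed 9.62 in the 27. The 8 other matrix metalloprotease genes measured under a symbol differed by -1.64 (mmp13) to 0.34 (mmp2) on the log2 scale. Of the family genes with a symbol, mmp28 alone was on the list. Genes with a LOC number only could not be assigned to the family. paplna, a papilin of basement membranes, had 2481 and 2826, against 99.8 to 257. perm1b, known from muscle mitochondria in mammals, had 486 and 479, against 3.95 at most, and the ferlin gene fer1l4 had 5910 and 5855, against 1.93 to 163.

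Proteins of blood plasma and liver enzymes formed a group of 7. tfa, the iron carrier transferrin, had 3556 and 5440 normalized reads in controls 5 and 6, against 0 to 21.6 in the 27. ces3 had 633 and 1579, against 0 to 12.0. selenop2, a selenium carrier of plasma, had 1292 and 1370, against 2.14 to 32.1. Its paralogue selenop had 17854 and 16180, inside its range of 6101 to 20674. The coagulation factor IX gene fa9 had 129 and 149, against 0 to 12.1. The plasma peroxidase gene gpx3 had 4685 and 5202, against 253 to 518, while the family member gpx4a went the other way, with 589 and 581 against 2732 to 56920. The third, gpx1a, had 653 and 524, above its range of 276 to 429. The methyltransferase gene pmt and dmgdh, an enzyme of choline breakdown, stood 72.1 and 61.7 times above the median of the 27.

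Liver values did not enter the score, but the highest of the 27 intestine libraries and the levels of controls 5 and 6 did, so counts of liver values above either describe the genes and nothing is read from them. Of the 7 genes of this group, all had a liver median above the highest of the 27 intestine libraries, and 6 had one above both controls 5 and 6. tfa had 626747 to 2081661 normalized reads in liver, so that its mean in controls 5 and 6 was 0.323% of the liver median of 1391137. For ces3 that share was 0.711%, for selenop2 2.34% and for pmt 2.89%. The liver markers that are not gained genes were rare in controls 5 and 6 beside their liver medians. fgg, a fibrinogen chain, had 30.1 and 17.1, above the highest of the 27 at 9.07, against a liver median of 739723. hp had 1.40 and 30.6, against 2.29 at most in the 27 and 93868 in liver. fga had 1.40 and 0, against 4.01 and 24309, and apoh had 1.40 and 1.80, against 18.6 and 95958. Of the 5 liver markers, tfa among them, 2 were higher in both than in all 27, where 20.3% of all genes were. The median difference of the 5 was 2.40 (log2). fgg, hp, fga and apoh stood at 0.00167 to 0.0170% of their liver medians. tfa is a gained gene and these 4 are not, so the rule itself favours a larger share for tfa. Nothing is read from that difference.

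**Figure D3:**
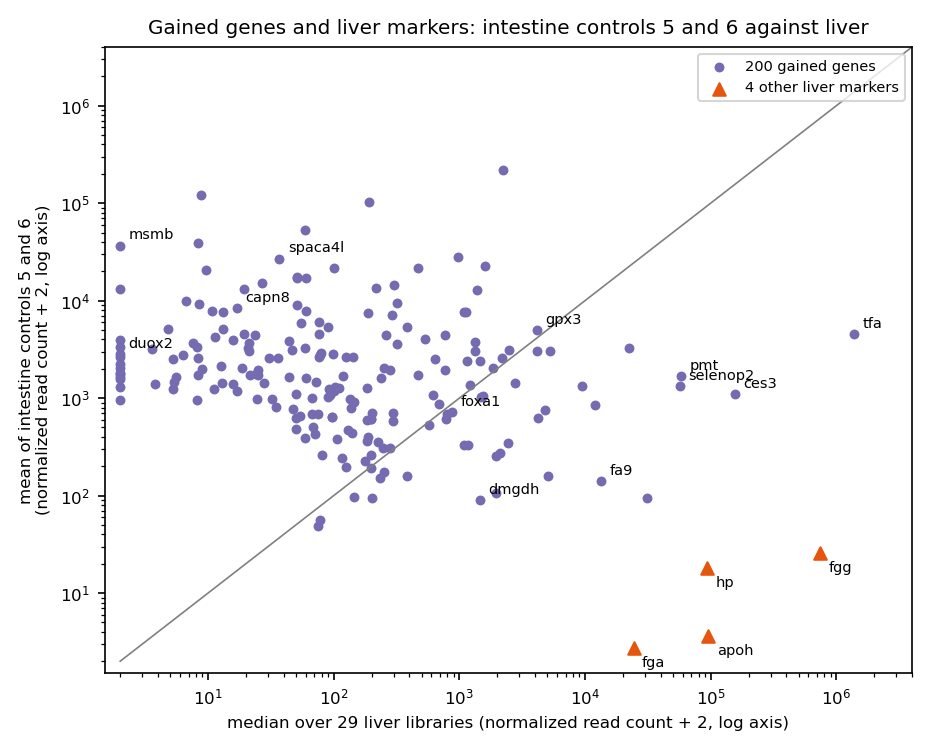
Mean of intestine controls 5 and 6 (vertical) against the median of the 29 liver libraries (horizontal) for the 200 gained genes (circles) and for fgg, hp, fga and apoh (triangles), as normalized read counts plus 2 on log axes. The line marks equal values. 35 circles have a liver median above both controls, and tfa lies far to the right of the line. The triangles, which are not gained genes, lie lower, as the rule favours.

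Over all 200 genes, 100 (50%) had a liver median above the highest of the 27 intestine libraries, and the same held for 28.4% of all genes. For 50 genes the liver median was more than 10 times that highest value. For 145 genes, every liver library was below the lower of controls 5 and 6. Neither of these last counts was made over all genes. A liver median above both controls was found for 35 (17.5%), against 44.1% of all genes. The choice of genes low in the 27 and high in controls 5 and 6 favours the larger number above the 27 and the smaller number above both controls. Liver medians under 10 were found for 36 genes (18%), against 6.48% of all genes, and 6 of the 36 were among the 14 of the surface and secretion group. By the authors' factors the values summed to 45.7 to 64.0 M in liver libraries and 19.5 to 24.2 M in intestine libraries. Scaled to total reads, liver values would be lower beside those of intestine. The counts and shares that set liver against intestine were not redone on that scale.

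Energy metabolism contributed ldhb, aifm4 and cpt1a2b. ldhb, a lactate dehydrogenase subunit, had 7342 and 7936 normalized reads, against 371 to 822. aifm4 had 5545 and 4751, against 28.8 to 193. cpt1a2b, which passes fatty acids into mitochondria, had 2748 and 2890, against 146 to 373. Another gene of that family, cpt1ab, had 1486 and 2213, below its range of 3344 to 5420 in the 27, while cpt1b had 54.7 and 158, above its range of 0 to 24.3. Of the remaining 13 named genes, hip1rb, a link between clathrin and actin, had 4706 and 6022, against 37.3 to 107. zgc:153284 had 8876 and 9743, against 51.8 to 248. si:ch73-206d17.1 had 236 and 305, and did not exceed 8.28 in the 27. cunh4orf33 had 22307 and 20567, against 126 to 1439, the widest range in the 27 among named genes with a median above 100 that were not at 0 in any library.

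Marker lists were read to see which tissue the 2 libraries held. Over all genes 20.3% were higher in both than in all 27 and 20.1% were lower. Counts near those shares, here and in the lists below, are not read as a trait of a tissue. Of 12 measured genes of absorbing enterocytes, 8 were lower in both than in all 27 and none was higher. Their summed normalized reads were 1249 and 2025, against 102909 to 921249. Of 3 measured intestinal transcription factors 2 were lower in both than in all 27. hnf4g had 162 and 181, against 2290 to 6810, and cdx1b had 0 and 19.8, against 2787 to 5034. pdx1 had 360 and 308, within its range of 55.8 to 416. The labels call both libraries distal intestine. Of the enterocyte genes, slc6a19, an amino acid transporter of the brush border, was at 0 in both, against 303 to 15030. vil1, the actin bundler of microvilli, had 936 and 1172, against 21295 to 63960. cubn, of the same list, had 51.9 and 67.5, inside its range of 45.5 to 47461 with a median of 87.0. No gained gene was in these lists. The gut hormone gene pyy had 4.21 and 7.20, against 74.5 to 2559.

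The 8 measured smooth muscle genes were all higher in controls 5 and 6 than in all 27. Their summed reads were 247428 and 318730, against 35166 to 132423, and the median difference was 2.05 (log2). cnn1b, a calponin, had 42146 and 78015, against 6013 to 19131. None of the 8 was a gained gene. The part of muscle content in the values of the gained genes was not tested. Of 10 fibroblast and matrix genes 4 were higher, fn1a with 2309 and 2970 against 436 to 981 among them. Of 9 enteric neuron genes 1 was higher and 1 lower. Over all genes 20.3% were higher and 20.1% lower. The glial gene mpz had 2145 and 1487, against 75.1 to 366.

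Markers of other places in the gut gave few readable values. Of the foregut transcription factors 3 were measured, and foxa1 alone was higher; gata5 (345 and 303 against 38.2 to 477) and pitx1 (451 and 369 against 57.0 to 773) were within range. Pepsinogens, the gastric proton pump and sox2 were looked for by symbol or synonym and gave no measured gene. The gastric list thus held only agr2 and LOC100136469, which has the synonym AGR2. The same 2 genes were all that was measured of the goblet cell list, so they cannot tell gastric glands from goblet cells. agr2, a chaperone of mucus cells, had 12274 and 11737, against 1654 to 5953, and LOC100136469 had 4255 and 3203, against 1620 to 5981. The 4 stratified squamous genes gave none higher and none lower, dspa for example having 6113 and 6736 against 4196 to 6919. The 4 genes of exocrine pancreas also gave none, but their median difference from the 27 was 2.40 (log2). prss1 had 555 and 238, against 13.4 to 1709 with a median of 46.1, the highest value being among controls 1 to 4.

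Blood and immune lists were lower or mixed, where 20.3% of all genes were higher and 20.1% lower. Of 6 T and B cell genes 5 were lower, such as cd3e with 125 and 140 against 488 to 1144, and 1 was higher. Of 5 macrophage and granulocyte genes 2 were lower, and mpeg1.1 had 316 and 464 against 3080 to 11454. Of 7 red cell genes 1 was higher, and their summed reads of 4037 and 7276 lay within the 27's range of 1205 to 7287. LOC106587486, whose synonym is that of the cardiac actin actc1, had 28359 in control 5 and 437 in control 6, against 43.3 to 299. The kidney and intestine transporter slc12a1 had 0.701 and 0, against 178 to 1138, and its relative slc12a2 had 1058 and 1035, against 95.6 to 258.

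The lists that remain held few measured genes, too few to set their counts apart from the 20.3% of all genes higher and 20.1% lower. Of 5 endothelial genes 2 were higher, of 4 adipocyte genes 1 was lower, and of 2 genes of interstitial cells of Cajal 1 was lower. The lists for thrombocytes, for striated muscle, for heart muscle and for gill and swim bladder held 2 measured genes each, 1 of them higher, and the splenic list had 1 higher and 1 lower of 2. wt1a, the only mesothelial gene measured, had 42.1 and 101 normalized reads, against 0 to 36. No gonad gene was measured under its symbol.

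Hox genes differed by their place in the clusters, though few were measured. The counts stand beside 20.3% of all genes higher and 20.1% lower. Of 7 measured genes of groups 1 to 5, 3 were higher in controls 5 and 6 than in all 27, with a median difference of 0.58 (log2). hoxa2ab had 207 and 239 normalized reads, against 27.8 to 109, and hoxb3a had 840 and 680, against 152 to 541. hoxc5ba was lower than all 27, with 12.6 and 14.4 against 100.4 to 223. The other 3 lay within or across their range, hoxa3ab with 400.2 and 308 against 193 to 567 and a difference of -0.19 (log2), and hoxa3a and hoxa5a with differences of 0.58 and 0.57. Of 4 genes of groups 6 to 8, 3 were lower and the median difference was -3.64. Of 4 genes of groups 9 to 13, 2 were lower and the median difference was -2.77; hoxa10ab was at 0 in both, against 41.7 to 233, and hoxc10ab had 123 and 90.9, against 27 to 102. No Hox gene was a gained gene.

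**Figure D4:**
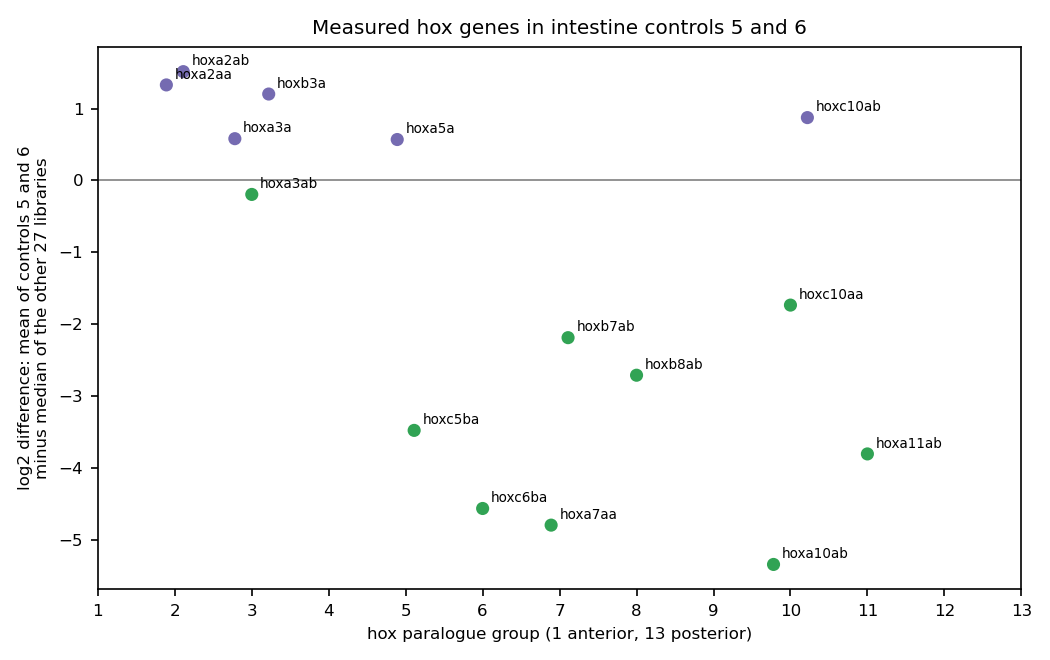
Difference of the 15 measured Hox genes, as the mean of controls 5 and 6 minus the median of the other 27 intestine libraries on the log2(value + 2) scale, by paralogue group. Points above 0 are purple and below 0 green; 5 of 7 genes in groups 1 to 5 lie above 0, and of the 8 genes from group 6 on, hoxc10ab does.

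The gained genes were spread over the genome. Of 188 placed on a chromosome of the reference assembly, members lay on 27 of 29 chromosomes, with at most 18 on one. In 4 pairs the genes were direct neighbours, among them duox and duox2, and spint2 with LOC106612676.

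The spread of the gained genes within the 27 libraries is a description only. The score subtracts the highest of the 27, so the rule disfavours genes with 1 high library among them, and the spread was not counted over all genes. For the 170 genes above 0 in all of them, the highest library was a median of 3.80 times the lowest, under 3 times for 61 genes and over 10 times for 18. Low enniatin B replicate 3 was the highest of the 27 for 27 gained genes (13.6% of the 199 above 0 in any of them), and for 12.0% of all genes. LOC106604090 had 1496 normalized reads there and 834 in the next library, b4galnt3b 240 and 142, and aifm4 193 and 120. The same library was lowest for duox, duox2, LOC106613332 (1.30, against 14.4 in the next lowest) and LOC106580802 (505, against 1568).

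Across the 27 libraries the correlation of a gained gene with the mean of the smooth muscle genes had a median of 0.25 over the 170 genes, and of 0.06 over all genes. It was above 0.5 for 30 gained genes (17.6%), against 12.5% of all genes. With the enteric neuron genes it was above 0.5 for 26 (15.3%), against 7.22% of all genes, with the fibroblast and matrix genes for 12 (7.06%), against 4.98%, with the absorbing enterocyte genes for 16 (9.41%), against 10.2%, with the red cell genes for 1 (0.588%), against 1.15%, and with the T and B cell genes for 0, against 3.39%. It was under -0.5 with the absorbing enterocyte genes for 7 of the 170 gained genes, against 6.71% of all genes. With the T and B cell genes it was so for 6, against 2.10%, and with the smooth muscle genes for 1, against 10.6%. With the fibroblast and matrix genes it was so for 1, against 2.35%, with the red cell genes for 1, against 1.19%, and with the enteric neuron genes for 0, against 3.11%. These points share the library, its depth and its mix of cells.

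Whether exposure moved the gained genes was tested without controls 5 and 6. The fit used the 27 other intestine libraries, with controls 1 to 4 as the comparison. The highest of these 27 values entered the score, so the rule disfavours genes raised in any of them. Differences between the shares of the gained genes and of all genes are therefore not read as a result. limma was fitted to all 25568 genes that passed the filter, 170 gained genes among them. After low enniatin B no gained gene passed at an adjusted p of 0.05, where 0.0% of all genes did, and 9 were higher and 0 lower at an unadjusted p under 0.05 (5.29%, against 6.96% of all genes in either direction). After high enniatin B again none passed (0.0% of all genes), with 8 higher and 3 lower unadjusted (6.47%, against 9.43% of all genes). After low beauvericin none passed (0.00391% of all genes, 1 gene), with 9 higher and 1 lower unadjusted (5.88%, against 8.18% of all genes). After high beauvericin 1 passed, LOC106570446, which was also the only one of all genes (0.00391%), with 3 higher and 1 lower unadjusted (2.35%, against 4.67% of all genes). LOC106570446 passed the filter on low values through exposed libraries alone.

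The median log2 change of the 170 genes was 0.13 after low enniatin B, 0.13 after high enniatin B, 0.09 after low beauvericin and 0.09 after high beauvericin. Over all genes tested it was -0.00, 0.02, 0.01 and -0.00. The 4 comparisons share controls 1 to 4. Named genes with small unadjusted p-values did not pass. prom2 had a log2 change of 1.19 ± 0.35 (SE) after low beauvericin (limma adjusted p = 0.48), and cunh4orf33 one of 1.08 ± 0.46 (limma adjusted p = 0.57).

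LOC106570446, the gene called after high beauvericin, has no name in the records. It had 7.37 to 24.6 normalized reads after low enniatin B, with a median of 14, and 7.31 to 28.7 after high enniatin B. It had 14.3 to 32.5 after low beauvericin and 14.2 to 37.3 after high beauvericin. Controls 1, 2, 3 and 4 had 5.90, 4.22, 2.26 and 2.68. All 23 exposed libraries thus lay above these 4. How many of all genes do the same was not counted, so nothing more is read from it. Controls 5 and 6, with 1008 and 1583, lay above every other intestine library, as the rule requires. The numbers rest on few reads, between 12 and 61 in exposed libraries and 4 to 10 in controls 1 to 4. Controls 1 to 4 were all under the filter's 10 normalized reads, so this gene was kept through exposed libraries alone. The filter thus favours a higher value after exposure, and the call is not read as support for an effect. With no filter the call after high beauvericin stayed (limma adjusted p = 0.024).

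The log2 change of LOC106570446 against controls 1 to 4 was 2.19 ± 0.35 (SE) after high beauvericin (95% confidence interval 1.47 to 2.90, limma adjusted p = 0.030). After low beauvericin it was 1.95 ± 0.36 (limma adjusted p = 0.097). After high enniatin B it was 1.73 ± 0.35 and after low enniatin B 1.48 ± 0.35 (limma adjusted p = 0.52 each). Doses of the 2 toxins are not stated to match, and their difference was not tested. The call is lost with edgeR (adjusted p = 0.071), with a pseudocount of 8 (limma adjusted p = 0.16), with the 2 groups alone in the fit (limma adjusted p = 0.34), with a replicate block (limma adjusted p = 0.26), and when control 2, 3 or 4 or any of high beauvericin replicates 3 to 6 is left out (adjusted p 0.069 to 0.18, limma). With controls 5 and 6 in the fit the sign turns, to -0.42 in limma and -4.13 in edgeR.

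**Figure D5:**
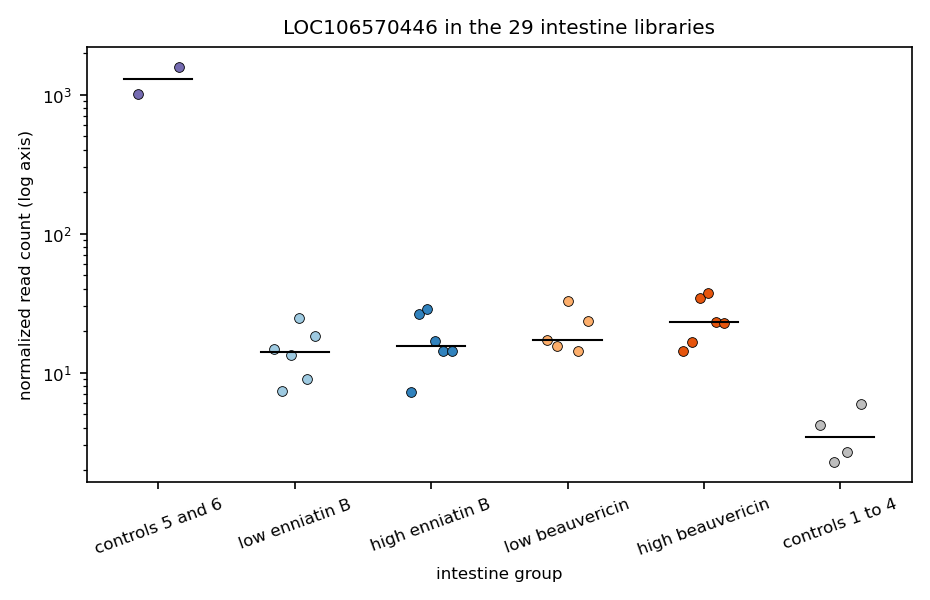
LOC106570446 in the 29 intestine libraries, as normalized read counts on a log axis, by group, with the median of each group as a line. Controls 5 and 6 (1008 and 1583) stand at the top, the 23 exposed libraries lie between 7.31 and 37.3, and controls 1 to 4 lie between 2.26 and 5.90.

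Controls 5 and 6 weigh on any comparison that includes them as part of the 6 controls. limma then called none of 176 gained genes in any of the 4 comparisons, where 0.0, 0.0, 0.0156 and 0.00391% of all genes were called, with 109, 106, 97 and 116 lower at an unadjusted p under 0.05 after low enniatin B, high enniatin B, low beauvericin and high beauvericin, where 17.5, 17.7, 18.7 and 16.9% of all genes reached it in either direction. edgeR called 167, 166, 132 and 170 of them lower after exposure, where 2.24, 2.11, 1.29 and 2.04% of all genes were called lower, and 0 higher. They made up 29.1, 30.7, 40 and 32.6% of all genes called lower. The rule used these 2 libraries, so nothing about the toxins is read from these counts.

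In liver, where no value entered the rule, 180 gained genes were tested over all 29 libraries with 6 controls. No gained gene passed limma after low enniatin B, high enniatin B or high beauvericin (0.0% of all genes each), or after low beauvericin (0.127% of all genes, 32 genes). At an unadjusted p under 0.05 the smallest after low beauvericin was that of gpx3, with a log2 change of 0.49 ± 0.16 (SE, limma adjusted p = 0.40). The gained genes took 2.13 to 4.59% of liver reads. Liver controls 5 and 6, which carry the same numbers as the 2 intestine libraries, did not stand apart. Of the gained genes 1 was higher in both than in all other 27 liver libraries (0.5%), where 0.48% of all genes were.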

How the data were processed

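The submitters' processing notes name Trim Galore 0.4.2, FastQC, HISAT2, featureCounts of Subread and DESeq2 1.18.1, without their settings. The genome build is not given in the sources used here. The deposited signal values are normalized read counts, in which the authors divided each library's reads by a factor. Multiplied back, 99.9999% lie within 0.1 read of a whole read (largest distance 0.169), so reads could be recovered. The lowest mean over the 58 libraries is 21.1, and no column was left unmapped. Values are not divided by gene length, and near-identical salmon gene copies that share reads are uncertain.

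The members and gene lists were chosen with earlier results of these data known. Symbols, synonyms and neighbours come from RefSeq genes of Ssal_v3.1, which matched 24184 of 26239 genes; lists were matched by symbol and synonym alone. Named genes are the 25 highest-scoring members with a symbol, members of the lists, the genes beside the last place and genes called in a test, and others were picked after their values were seen. The test was limma 3.58.1 in R 4.3.3, with trend and robust moderation on log2(value + 2), on genes that reached 10 in 5 libraries or more, with Benjamini-Hochberg adjustment over all genes at 0.05. Alternatives were edgeR 4.0.16 and DESeq2 1.42.0 on recovered reads, other pseudocounts (1 and 8), no filter, TMM scaling, a replicate block, the 2 groups alone, 100 or 400 members, and each library left out. On simulated counts for high beauvericin in intestine (25568 genes), limma recovered 72 and 90% of 2-fold and 4-fold changes, with 4.71% false calls. For liver (25157 genes) it recovered 58 and 93%, with 1.31% false calls. These counts were drawn independently for each gene, with no difference in cell mix between libraries, so the real libraries may give other shares. They held 100 changed genes of each size, while in the real comparisons limma called 1 gene in intestine and 0 in liver. With fewer true changes the adjustment is stricter, so fewer may be recovered. A lack of calls is therefore not read as a lack of 2-fold changes. Libraries of a group all differed beyond sampling noise (chi-square over its degrees of freedom at least 28.4).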

Additional observations from a re-analysis of the deposited data

How the results depend on the processing

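Membership was little moved by scaling: of the 200 genes, 197 stayed with a pseudocount of 1, 190 with 8, 190 with scaling to total reads, 196 with TMM, and 147 when the mean difference replaced the gap. Leaving out 1 of the 27 libraries kept 184 (without low enniatin B replicate 3) to 200.

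With controls 5 and 6 in the fit, edgeR called 167, 166, 132 and 170 gained genes in intestine after low enniatin B, high enniatin B, low beauvericin and high beauvericin. limma then called 0 in each. LOC106570446 then had log2 changes of -1.13, -0.88, -0.65 and -0.42 in limma and -4.91, -4.62, -4.41 and -4.13 in edgeR, in the same order. These reversals follow from adding 2 libraries at 1008 and 1583.

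Without those controls, the 1 call after high beauvericin became 0 with a pseudocount of 8, with edgeR, in the 2 groups alone and with a replicate block; the cause was not tested. DESeq2 called 1 gained gene after high enniatin B and 1 after low beauvericin, LOC106570446 in both and higher. In liver it called 1 after low beauvericin, LOC106610627, which was lower (log2 change -4.06, DESeq2 adjusted p = 0.0067). The share of all genes that DESeq2 called is not given here, so nothing is read from these counts. With 1 library left out, 0 to 4 gained genes were called after high enniatin B, 0 to 1 after low beauvericin, 0 to 1 after high beauvericin, and 0 after low enniatin B and in every liver comparison. The 4 came without control 4 (LOC106570446, LOC106604853 and LOC106608584 higher, LOC106565419 lower), when 1192 of all genes were called. After low beauvericin the call came without control 4, when 358 of all genes were called, or without high enniatin B replicate 2. Over all genes, leaving 1 library out gave 0 to 79 calls in intestine after low enniatin B and 0 to 1192 after high enniatin B. It gave 0 to 358 after low beauvericin and 0 to 3 after high beauvericin, and up to 42 in liver. The counts of gained genes are therefore not read as a trait of these genes.

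Same-numbered libraries deviated with correlations of -0.21 to 0.30 in intestine (4 of 16 pairs over 0.1) and -0.21 to 0.13 in liver (3 of 23). Number 4 gave 0.04 to 0.30 in the intestine comparisons. Libraries with different numbers were not correlated, so whether the numbers pair samples cannot be told.

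Levels near 0 in the 27 libraries rest on few reads. The 4 intestine comparisons rest on the same 4 controls.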
